A study of Mus musculus with 14 samples.

Results

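The chemokine and chemokine receptor genes described here are all those whose array probe carries a RefSeq accession of a gene with a chemokine (Ccl, Cxcl, Cx3cl1, Xcl1), chemokine receptor (Ccr, Cxcr, Cx3cr1, Xcr1) or atypical receptor (Ackr1 to Ackr4) symbol. There were 58 such genes (36 ligands and 22 receptors) with 69 probes, among 19751 named genes on the array. No probe was named for Cxcl11, Ccl21c, Ccl21d and Ccl27b.

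Chemokines are small secreted proteins that attract leukocytes by binding G protein-coupled receptors on their surface, and they are named after the spacing of their first cysteines (CC, CXC, C and CX3C families). In liver they are made by hepatocytes, sinusoidal endothelial cells, Kupffer cells, stellate cells and lymphocytes, and they recruit and hold monocytes, T cells and NK cells in the sinusoids and portal tracts. Atypical receptors bind chemokines without G protein signalling and take them up from the surroundings.

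Liver RNA was compared between male and female CD-1 mice of 3, 4 and 8 wk in 7 comparisons, which were M3/F3, M4/F4 and M8/F8 between the sexes, M8/M3 and M8/M4 for age in the male and F8/F3 and F8/F4 for age in the female, where M and F stand for male and female and the number is the age in wk. The labels name no transgene and no treatment. CD-1 is an outbred stock, and each RNA pool combined 5 mice at 3 wk or 6 mice at 4 and 8 wk. Each comparison had 2 two-colour arrays with separate pools and exchanged dyes, and values below are log2 ratios of the first group over the second, so that a ratio below 0 in M8/F8 means a lower level in male liver. The labels were checked by the ratio of Xist, the RNA that coats the inactive X chromosome, which was between −5.10 and −6.67 on all 6 arrays of male against female liver. Calls required an adjusted p under 0.05, a change of more than 1.5-fold in either direction, and a probe that passed the scanner software's test for a signal well above background on both arrays in 1 of the groups compared or in both.

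Of the 58 genes, 28 were well above background in all 28 array channels and 4 (Ccl20, Ccl22, Cxcl3 and Cxcl15) in none. In all, 44 genes were bright enough to be called in at least 1 comparison. The other 14 were Ccl1, Ccl11, Ccl17, Ccl20, Ccl22, Ccl26, Cxcl3, Cxcl15, Cxcl17, Ccr1, Ccr4, Ccr10, Cxcr1 and Xcr1, which were not tested. Among them are Ccl20, the ligand of Ccr6, and Xcr1, the receptor of Xcl1 on cross-presenting dendritic cells. At least 1 comparison was called for 16 of the 44 genes, against 23.1% of all genes tested in the same way. Lower levels with age or in the male were called for 13 of these 16 genes and higher levels for 3.

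**Figure D1:**
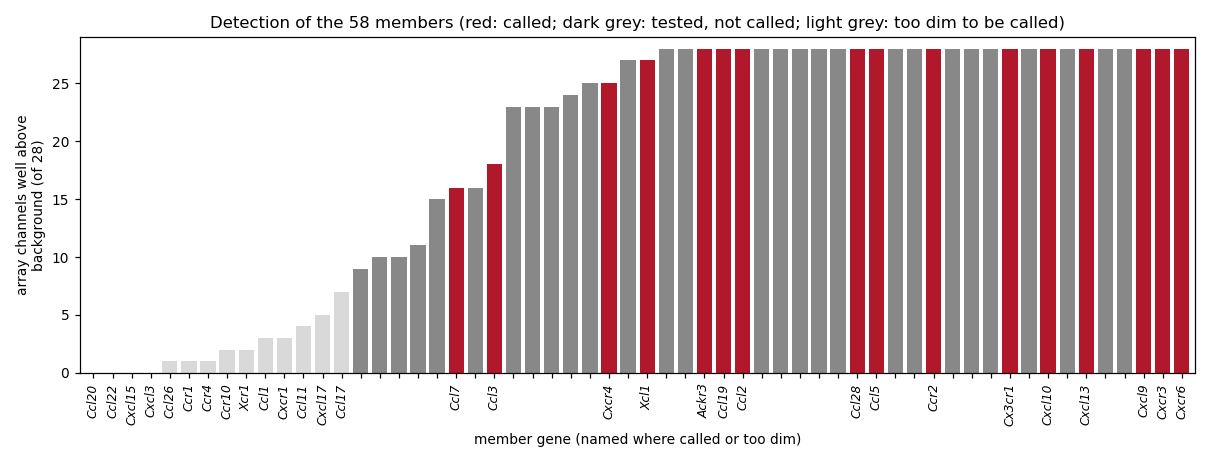
Detection of the 58 genes on the arrays. The x axis lists the genes in order of detection, with names for those called and those too dim, and the y axis gives the number of the 28 array channels in which the gene was well above background. Red bars are the 16 genes called in at least 1 comparison, dark grey bars are genes that could be tested and were not called, and light grey bars are the 14 genes that were too dim to be called. Most of the called genes were detected in all 28 channels, with Ccl7 (16 channels) and Ccl3 (18) the dimmest.

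The promoters of 3 genes are shown. Cxcl9 and Cxcl10, neighbours on mouse chromosome 5, encode chemokines that are induced by interferon and attract T and NK cells through the receptor Cxcr3, and they had the largest called sex differences at 8 wk. Ccl19, which guides Ccr7-bearing dendritic cells and T cells, is shown because it was the other called gene whose promoter holds an interferon response element core. The sequences are the 250 bases before the transcription start in RefSeq (build GRCm38.p6), written in the direction of the gene. Cxcl10 lies at chr5:92348890-92349139 (minus strand), Cxcl9 at chr5:92328080-92328329 (minus strand) and Ccl19 at chr4:42756366-42756615 (minus strand). Capitals mark matches, on either strand, to the core of the interferon-stimulated response element (GAAA, any 2 bases, GAAA), to a STAT-binding GAS element (TTC, any 3 bases, GAA) or to an NF-kappaB site (GGG, any 3 bases, TTCC).
Cxcl10: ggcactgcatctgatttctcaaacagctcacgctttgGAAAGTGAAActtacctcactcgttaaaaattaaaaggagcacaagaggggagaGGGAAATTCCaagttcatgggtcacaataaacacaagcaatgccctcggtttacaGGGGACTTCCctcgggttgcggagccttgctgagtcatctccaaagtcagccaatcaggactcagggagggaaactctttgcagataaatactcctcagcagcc
Cxcl9: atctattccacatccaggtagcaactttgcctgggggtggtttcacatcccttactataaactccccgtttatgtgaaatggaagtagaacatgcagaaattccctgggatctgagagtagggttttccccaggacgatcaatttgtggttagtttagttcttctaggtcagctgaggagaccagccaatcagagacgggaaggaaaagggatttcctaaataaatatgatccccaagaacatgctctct
Ccl19: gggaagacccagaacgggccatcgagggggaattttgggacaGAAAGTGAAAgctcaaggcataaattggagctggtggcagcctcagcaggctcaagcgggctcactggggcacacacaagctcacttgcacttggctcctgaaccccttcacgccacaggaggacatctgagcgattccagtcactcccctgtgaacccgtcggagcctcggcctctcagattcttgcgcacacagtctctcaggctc
The Cxcl10 promoter held 1 response element core, GAAAGTGAAA, which began 213 bases before the start, and 2 NF-kappaB matches that began 159 and 104 bases before it. The Ccl19 promoter held the same response element core, 208 bases before the start, and the 250 bases before Cxcl9 held none of the 3 motifs. Promoter sequences were found for 44 of the 58 genes, and those of Ccl2, Ccl5 and Ccl7 were not among them. The response element core was present in 3 of the 44 (Ccl19, Cxcl10 and Cxcl14), against 3.04% of the 27025 promoters of the same length, the GAS element in 3 (7.18% of all promoters) and the NF-kappaB site in 8 (4.6%). These matches are descriptions of letters and not of binding. Of the genes that were lower in male liver at 8 wk, 5 had a promoter sequence, and the response element core was in 1 of them, Cxcl10.

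At 3 and 4 wk no chemokine or receptor was called between the sexes. In M3/F3 0 of 34 testable genes was called by limma, where 0.517% of all testable genes were called, and 5 of the 34 had an unadjusted p below 0.05. In M4/F4 0 of 32 genes was called against 1.58% of all genes, and 5 had an unadjusted p below 0.05. The lowest ratio at 3 wk was that of Cxcl13, the chemokine that draws B cells into lymphoid follicles, which was −1.19 and −0.86 on its arrays (fitted log2 ratio −1.02 ± 0.29, SE; adjusted p = 0.0619). Both arrays were below 0 for it, and it was called under 5 alternatives, which were the replicate block, slide as a block, group means in place of comparisons, only probes well above background, and error-weighted averages. Ccl6, a macrophage and neutrophil chemokine of the mouse, was below 0 on average in both comparisons, at −0.55 in M3/F3 (adjusted p = 0.0431) and −0.58 in M4/F4 (adjusted p = 0.0349), which is just short of the 1.5-fold threshold. With group means in place of comparisons it was called in M4/F4. Neutrophil markers were lower in the male at these ages, 6 of 8 in M3/F3 (median −0.73) and 2 of 7 in M4/F4 (median −0.66). Their summed log2 intensity was 13.4 and 13.5 in M3 against 14.3 and 14.5 in F3, and 12.3 and 12.3 in M4 against 12.8 and 13.1 in F4, and their part in the result was not tested. The lymph node homing receptor Ccr7 had a ratio of −0.36 in M4/F4 with an adjusted p of 0.00974, again below the fold threshold.

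At 8 wk 6 of 35 testable genes differed between the sexes, and all 6 were lower in male liver. Of all genes tested in M8/F8, 6.4% were called in either direction and 3.74% as lower in male liver. Over the 3 sex comparisons together this was 6 of 37 genes, against 7.06% of all genes. The 6 genes were the ligands Cxcl9 and Cxcl10, their receptor Cxcr3, the T cell chemokine Ccl5, the lymphocyte chemokine Xcl1 and Cxcr6, a receptor of T, NK and NKT cells in the sinusoids. The median log2 ratio of the 35 genes was −0.14, and 9 of them were above 0. RNA of the whole liver was measured, so that fewer cells of a type and less RNA per cell cannot be told apart.

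Cxcl9 was −1.14 and −1.36 on the arrays of M8/F8, a fitted ratio of −1.25 ± 0.19 (SE, n = 2 arrays) or 2.38-fold lower in male liver (adjusted p = 0.00661 by limma). Its dimmer probe gave −1.25 and −1.35. Both arrays of both probes were well below 0, whereas at 3 and 4 wk the arrays of the brighter probe fell on either side of 0 (0.23 and −0.20 in M3/F3, and −0.51 and 0.06 in M4/F4). Cxcl10 was −1.0 and −1.16, or 2.12-fold lower (fitted ratio −1.08 ± 0.19, adjusted p = 0.0101). It was close to 0 at 3 wk (0.09 and 0.11) and lay on both sides of 0 at 4 wk (−0.34 and 0.35).

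Cxcr6 was −1.52 and −0.62, a fitted ratio of −1.07 ± 0.26 (adjusted p = 0.037), and its dimmer probe was −1.43 and −0.63. The arrays shared the direction but not the size of the difference. Xcl1 was −0.78 on both arrays (fitted ratio −0.78 ± 0.19, adjusted p = 0.0344), with M8 well above background on 1 of its 2 arrays. Ccl5 was −0.79 and −0.58 (fitted ratio −0.69 ± 0.08, adjusted p = 0.00278) and Cxcr3 was −0.84 and −0.43 (fitted ratio −0.64 ± 0.08, adjusted p = 0.00337). Ccl5 was also below 0 on both arrays at 3 wk (−0.60 and −0.23, adjusted p = 0.0187) and at 4 wk (−0.38 and −0.09), with fitted ratios under the fold threshold.

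Leaving out arrays of M8/F8 changed how many of the 6 genes were called. With replicate 1 left out 3 remained (Cxcl9, Cxcl10 and Ccl5), and with replicate 2 left out 2 remained (Ccl5 and Cxcr3). After normexp background correction and loess normalization of the median signals, Cxcl9, Cxcl10 and Cxcr6 were called together with the macrophage chemokine Ccl24, and Ccl5, Xcl1 and Cxcr3 were not. The ratio of Cxcr3 was then −0.39 and that of Ccl5 −0.58. With the replicate block 4 of the 6 remained, without Cxcr6 and Xcl1. Xcl1 was also lost with shared pools in the covariance, and Cxcr6 without the dye term and with slide as a block. A smaller ratio with an adjusted p below 0.05 was found in M8/F8 for Ccl25, a chemokine of thymus and gut (0.30, adjusted p = 0.0146), which was the only other such gene among the 35.

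Marker genes of several cell types also differed between the sexes at 8 wk. In M8/F8 5 of 10 Kupffer cell and macrophage markers were lower in male liver (median log2 ratio −0.58), and their summed normalized log2 intensity was 15.6 and 15.8 in the M8 pools and 16.2 and 16.3 in the F8 pools. This list was lower in the male at the younger ages too, with medians of −0.25 in M3/F3 (0 called) and −0.27 in M4/F4 (1 called). Its summed levels were 16.1 and 16.2 in M3 against 16.4 and 16.4 in F3, and 16.2 and 16.3 in M4 against 16.5 and 16.6 in F4. The interferon response list summed to 15.1 and 15.1 in M4 against 15.2 and 15.3 in F4, with 0 called. Of 10 interferon response genes 3 were lower (Ifit1 −1.08, Ifit3 −0.89 and Gbp2 −0.77; median −0.40), with a summed level of 14.6 to 14.8 in M8 and 15.1 to 15.2 in F8. Of 8 testable T and NK cell markers 1 was lower (Cd3g, −0.86; median −0.30), and the summed level of the list overlapped between M8 (12.4 to 12.6) and F8 (12.3 to 12.7). Of 5 monocyte markers 2 were lower (median −0.36), with summed levels of 13.6 and 13.9 in M8 and 13.9 and 13.9 in F8, and of 4 dendritic cell markers 1 was lower (median −0.19), with 15.6 and 15.7 in M8 and 15.8 and 16.0 in F8. In the other direction, 1 of 4 erythroid markers was higher in male liver (Alas2, 1.89), although the median of the 4 was −0.14. The summed levels of the erythroid list were 14.2 and 14.4 in M8 and 12.3 and 12.9 in F8. Bile duct markers summed to 13.4 and 13.6 in M8 and 12.8 and 12.9 in F8, with 0 of 5 called (median 0.43). None of the neutrophil, B cell, endothelial and mesenchymal markers was called by limma, and the summed levels of these lists were lower in both M8 pools than in both F8 pools. No marker of these lists was below background throughout. The part of these cell types and of the interferon response in the result was not tested.

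**Figure D2:**
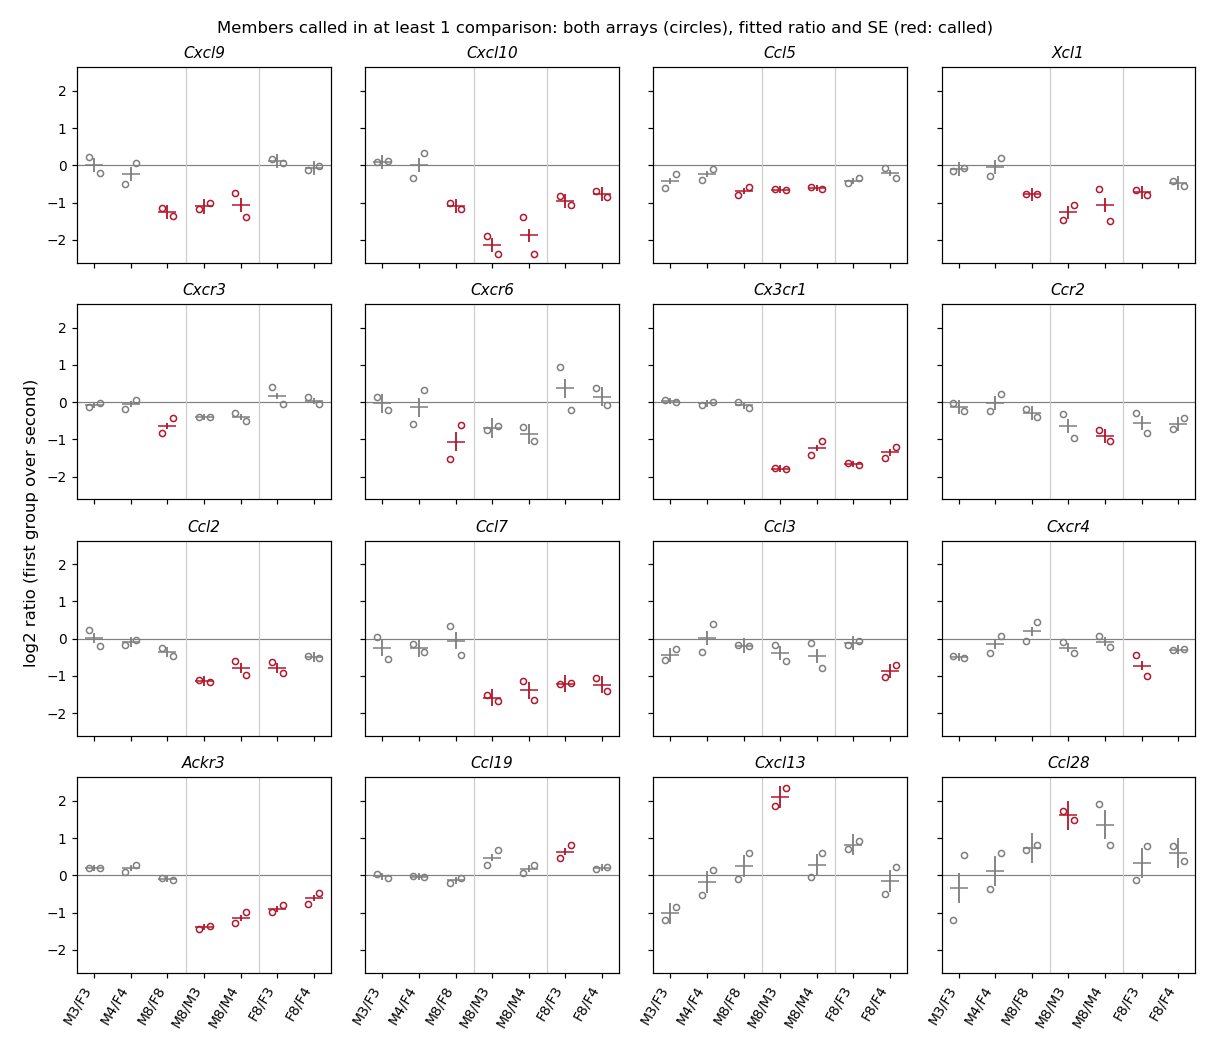
Ratios of the 16 genes called in at least 1 comparison. Each panel is a gene, the x axis gives the 7 comparisons and the y axis the log2 ratio of the first group over the second. Circles are the 2 arrays, bars are the fitted ratio with its SE, and red marks a called comparison. Cxcl9, Cxcl10, Ccl5, Xcl1, Cxcr3 and Cxcr6 lie below 0 in M8/F8, while Cx3cr1 and Ackr3 lie near 0 between the sexes and at or below −0.47 on every array of the age comparisons.

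From 3 to 8 wk 10 of 40 testable genes changed in male liver (M8/M3), 8 of them downward and 2 upward, where 17.8% of all testable genes were called (10% downward and 7.81% upward). From 4 to 8 wk 9 of 41 genes fell in male liver (M8/M4) and none rose, against 10.8% of all genes (6.38% downward), and the median ratio of the 41 was −0.32 compared with 0.02 for all genes. The median was −0.09 in M8/M3, where that of all genes was 0.01, and −0.18 and 0.02 for F8/F4 and F8/F3, where it was 0.02 for all genes. In female liver 8 of 42 genes changed from 3 to 8 wk (F8/F3), 7 downward and 1 upward, against 11.7% of all genes (6.64% downward and 5.08% upward). From 4 to 8 wk 5 of 44 genes fell in female liver (F8/F4) against 6% of all genes (3.72% downward). At least 1 change with age was called for 11 of 42 genes in the male (19% of all genes) and for 9 of 44 in the female (12.2% of all genes). Both age comparisons of a sex share its 8 wk group, which M8/F8 uses as well. Cx3cr1, Ackr3, Ccl7 and Cxcl10 were called as lower at 8 wk in all 4 age comparisons. With normexp correction Ccl7 was called in none of them, and Ackr3 not in F8/F4. In each of these comparisons the Ccl7 call was also lost when a single array of it was left out. This was replicate 2 in M8/M3, M8/M4 and F8/F4, and either replicate in F8/F3. The call of Cxcl10 in F8/F4 was lost without the dye term, with slide as a block, and when an array of any comparison other than M8/F8 and M8/M4 was left out.

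**Figure D3:**
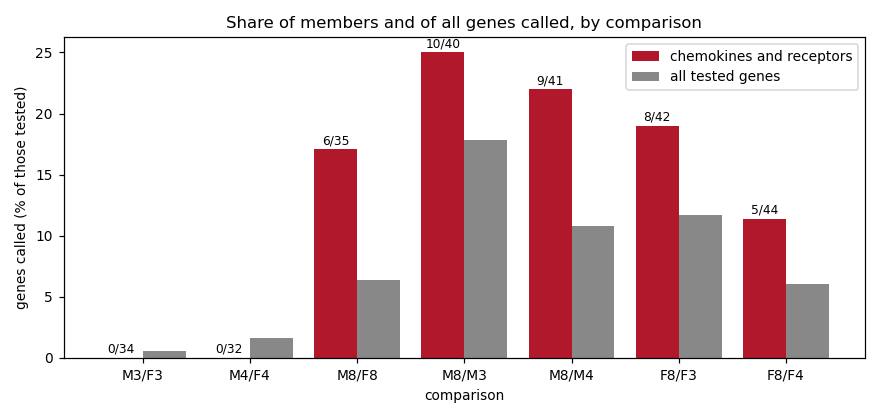
Share of genes called in each comparison. The x axis gives the comparison and the y axis the percent of testable genes that were called, for chemokines and receptors (red, with the number called over the number tested) and for all genes (grey). The red bar stands at 0 in M3/F3 and M4/F4, at 17.1% against 6.4% in M8/F8 and at 25% against 17.8% in M8/M3.

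Among the receptors the fractalkine receptor Cx3cr1, which marks patrolling monocytes and several macrophage populations, fell most. It was −1.78 and −1.80 on the arrays of M8/M3, or 3.46-fold lower at 8 wk (fitted ratio −1.79 ± 0.09, adjusted p = 0.000146), and −1.64 and −1.69 in F8/F3, or 3.16-fold lower (adjusted p = 0.000178). In M8/M4 and F8/F4 it was −1.23 ± 0.09 and −1.35 ± 0.09, and its dimmer probe was called in the same 4 comparisons. With normexp correction its ratio in M8/M3 was −1.01, and the call was kept. The sexes did not differ beyond the spread at any age, with fitted ratios of 0.03, −0.03 and −0.09. Its ligand Cx3cl1, made by endothelium and bile duct cells, had age ratios of 0.18 to 0.35, none of which was called.

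The atypical receptor Ackr3, which clears Cxcl12, was −1.44 and −1.35 in M8/M3 (fitted ratio −1.40 ± 0.08, adjusted p = 0.000216) and −1.28 and −0.99 in M8/M4 (adjusted p = 0.000405). In female liver it was −0.98 and −0.80 in F8/F3 (adjusted p = 0.000943) and −0.76 and −0.47 in F8/F4 (adjusted p = 0.0037). All 8 arrays were below 0, and with normexp correction the ratio in M8/M3 was −0.78. The ratio in the male was lower than in the female by 0.51 on the log2 scale from 3 wk and by 0.52 from 4 wk, with adjusted p values for the interaction of 0.0641 and 0.0983. The other atypical receptors did not pass: Ackr1, Ackr2 and Ackr4 had age ratios between −0.43 and 0.35. Cxcl12, the ligand of Cxcr4 and Ackr3 that holds haematopoietic cells in bone marrow and fetal liver, had age ratios between −0.19 and 0.06, and none was called.

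Cxcl10 was called as lower at 8 wk in both sexes, with female calls that leaving out a single array ended. It was −1.89 and −2.36 in M8/M3, or 4.37-fold lower (fitted ratio −2.13 ± 0.19, adjusted p = 0.000812), and −1.39 and −2.37 in M8/M4 (adjusted p = 0.00125). In female liver it was −0.82 and −1.07 in F8/F3, or 1.93-fold lower (adjusted p = 0.017), and −0.68 and −0.85 in F8/F4 (adjusted p = 0.0368). The call in F8/F3 was lost when either of its arrays was left out. Every male array lay below every female array. The adjusted p of the interaction was 0.0604 from 3 wk and 0.118 from 4 wk, so that the difference between the sexes did not pass the test. From 3 wk it was called with shared pools in the covariance, with group means in place of comparisons, with only probes well above background, with error-weighted averages, and when either array of M8/M4 was left out.

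Cxcl9 fell in male liver, where it was −1.18 and −1.02 in M8/M3 (fitted ratio −1.10 ± 0.19, adjusted p = 0.0109) and −0.74 and −1.39 in M8/M4 (adjusted p = 0.0124). The call in M8/M3 was lost when either of its arrays was left out, and that in M8/M4 without its replicate 2. In female liver its arrays lay around 0, at 0.17 and 0.07 from 3 wk and at −0.13 and −0.02 from 4 wk. The interaction was −1.22 ± 0.27 from 3 wk (adjusted p = 0.0601), while the dimmer probe passed at −1.31 ± 0.25 (adjusted p = 0.0376). The mean log2 intensity of Cxcl9 was 11.5 ± 0.44 (SD, n = 2 pools) in M3, 11.4 ± 0.10 in M4 and 10.4 ± 0.32 in M8, against 11.4 ± 0.07 in F3, 11.6 ± 0.30 in F4 and 11.5 ± 0.22 in F8. Both M8 pools lay below all other pools, and the other groups overlapped with their neighbours in the order of means.

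For Cxcl10 the mean log2 intensity was 11.6 ± 0.21 in M3 and 11.5 ± 0.01 in F3, 11.4 ± 0.24 in M4 and 11.4 ± 0.17 in F4, and 10.6 ± 0.19 in F8 and 9.65 ± 0.31 in M8. The 3 and 4 wk groups overlapped, both F8 pools lay below them, and both M8 pools lay below F8.

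**Figure D4:**
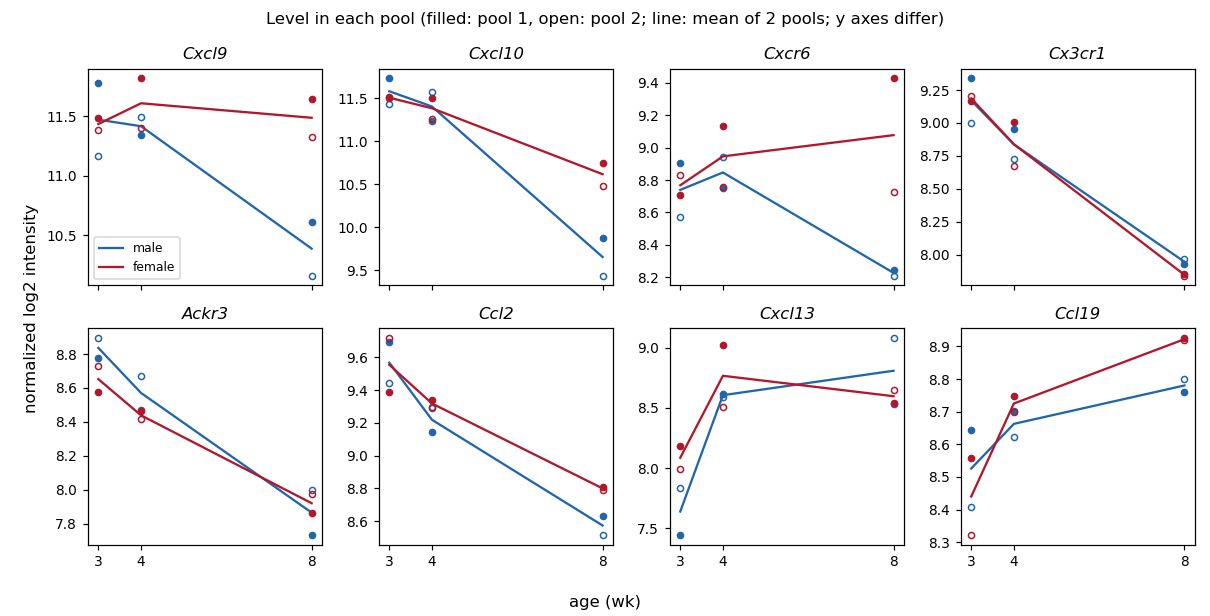
Normalized level of 8 genes in every pool. The x axis gives the age in wk and the y axis the normalized log2 intensity, on a separate scale for each gene. Filled and open circles are pools 1 and 2, lines join group means, and blue is male and red female. Cxcl9 and Cxcr6 separate by sex at 8 wk only, Cx3cr1 and Ackr3 fall in both sexes, and Cxcl13 is lowest in M3.

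The monocyte chemokines Ccl2 and Ccl7 were lower at 8 wk in both sexes. Ccl2, the main attractant of inflammatory monocytes, was −1.11 and −1.16 in M8/M3 (fitted ratio −1.14 ± 0.14, adjusted p = 0.00248), −0.59 and −0.97 in M8/M4 (adjusted p = 0.0106) and −0.64 and −0.91 in F8/F3 (adjusted p = 0.0108), and in F8/F4 it was −0.47 and −0.53 (adjusted p = 0.0535). Without replicate 2 of the comparison the call was lost in M8/M4 and in F8/F3. In M8/M3, M8/M4 and F8/F3 its neighbour Ccl7 was well above background at the younger age but on no array at 8 wk, so that only lower bounds can be given. It was at least 1.19-fold lower in M8 than in M3, 1.26-fold in M8 than in M4 and 1.25-fold in F8 than in F3. These bounds equal the ratios of intensities corrected with normexp and an offset of 50, which draws dim signals together. They lie under the 1.5-fold threshold that the fitted ratios passed. The adjusted p values belong to the fitted ratios of limma and not to these bounds (0.00505, 0.00865 and 0.0145). In F8/F4 it was measured on both sides, at −1.07 and −1.40 (adjusted p = 0.0134). Ccr2, the receptor for Ccl2 and Ccl7 on monocytes, was −0.75 and −1.05 in M8/M4 (fitted ratio −0.90 ± 0.19, adjusted p = 0.0219) and −0.31 and −0.96 in M8/M3 (adjusted p = 0.0749). In female liver Ccr2 was −0.57 and −0.58 (adjusted p = 0.106 and 0.0995). All 8 arrays of Ccr2 were below 0, and the call in M8/M4 was lost when either of its arrays was left out.

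Ccl12, a further Ccr2 ligand in the same gene cluster of chromosome 11, was not well above background at 8 wk on the arrays of the age comparisons and was not called (adjusted p = 0.13 to 0.57). Its bound was at least 1.12-fold lower at 8 wk in M8/M3 and at least 1.19-fold lower in F8/F4. It was called in M8/M3 and M8/M4 with group means in place of comparisons and when either array of M3/F3 was left out. Xcl1, which T and NK cells secrete, was −1.47 and −1.06 in M8/M3 (fitted ratio −1.26 ± 0.19, adjusted p = 0.00559), −0.64 and −1.48 in M8/M4 (adjusted p = 0.0109) and −0.67 and −0.78 in F8/F3 (adjusted p = 0.0445). After normexp correction, whose offset draws dim ratios towards 0, its ratio in M8/M3 was −0.29, and it was called in none of these comparisons. The male calls were also lost without replicate 1 of M8/M3 or replicate 2 of M8/M4. The female call was lost without the dye term, with shared pools in the covariance, with the replicate block, and when an array of any comparison other than M8/M3 and M8/M4 was left out. Ccl5 was −0.63 and −0.66 in M8/M3 (adjusted p = 0.00347) and −0.58 and −0.64 in M8/M4 (adjusted p = 0.00436), close to the 1.5-fold threshold. Both calls were lost with normexp correction and when replicate 1 of the comparison was left out. Its female ratios were −0.41 (adjusted p = 0.0195) and −0.21, under that threshold. Ccl3, a macrophage chemokine and ligand of Ccr1, was called in F8/F4 alone, at −1.03 and −0.71 (fitted ratio −0.87 ± 0.19, adjusted p = 0.0259), and with normexp correction its ratio was −0.31. The call was lost under 5 of 26 alternatives, which were that correction, slide as a block, error-weighted averages, and leaving out replicate 1 of M8/M3 or of F8/F4, where the ratio was −0.54 in the last case. In the same cluster on chromosome 11, which also holds Ccl5, the genes Ccl4, Ccl6 and Ccl9 had age ratios between −0.32 and 0.33 and none was called.

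Cxcr4, which holds haematopoietic progenitors and lymphocytes through Cxcl12, was −0.45 and −1.01 in F8/F3 (fitted ratio −0.73 ± 0.12, adjusted p = 0.00835), and its ratio was −0.28 with normexp correction. The call was lost with that correction, with error-weighted averages and without replicate 2 of F8/F3. In the male it was −0.24 and −0.08, and the interaction from 3 wk did not pass (0.49, adjusted p = 0.185). Between the sexes at 3 wk Cxcr4 was lower in the male with an adjusted p below 0.05 by limma, under the fold threshold. The eosinophil receptor Ccr3 had ratios of −0.86 and −1.01 in the male and −0.84 and −0.80 in the female, for M8/M3 and M8/M4 (adjusted p = 0.0933 and 0.0553) and then F8/F3 and F8/F4 (adjusted p = 0.101 and 0.114). With normexp correction it was called in M8/M4, F8/F3 and F8/F4. Group means in place of comparisons and error-weighted averages called it in every age comparison. With shared pools in the covariance it was called in M8/M3, M8/M4 and F8/F3. Fitting only probes well above background, or adjusting within each comparison, called it in M8/M4. The Th17 and B cell receptor Ccr6 was −0.87 in M8/M4 (adjusted p = 0.0795). Cxcr6 was −0.70 and −0.86 in the male (adjusted p = 0.138 and 0.0775) and 0.37 and 0.14 in the female. Cxcr3 was −0.40 and −0.41 in the male (adjusted p = 0.02 and 0.0185) and 0.17 and 0.04 in the female, and its interaction from 3 wk was −0.57 ± 0.12 with an adjusted p of 0.0461, just under the fold threshold. Under alternatives Ccr6 was called in M8/M4, Ccr2 in M8/M3 and Cxcr6 in both. Cxcr6 was called in M8/M4 with group means, shared pools in the covariance, only probes well above background and error-weighted averages. Group means and error-weighted averages also called its interactions from 3 and 4 wk.

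Upward changes were called for 3 ligands. Cxcl13 was 1.87 and 2.34 in M8/M3, or 4.30-fold higher at 8 wk (fitted ratio 2.10 ± 0.29, adjusted p = 0.00429), and 0.94 on the log2 scale with normexp correction. The call was lost without replicate 2 of M8/M3. In F8/F3 it was 0.72 and 0.93 (adjusted p = 0.121). It was called there with slide as a block, the replicate block, group means in place of comparisons and error-weighted averages. From 4 wk its ratios were 0.29 in the male and −0.15 in the female, near 0. The mean log2 intensity of Cxcl13, corrected with normexp and thus drawn together where dim, was 7.64 ± 0.28 (SD, n = 2 pools) in M3 and 8.09 ± 0.13 in F3. It was between 8.60 and 8.81 in the older groups, whose pools overlapped. Its receptor Cxcr5 on B cells and follicular T cells had age ratios of 0.06 to 0.58, and none was called.

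Ccl28, a mucosal chemokine of epithelium, was 1.73 and 1.49 in M8/M3 (fitted ratio 1.61 ± 0.40, adjusted p = 0.0412) and 1.92 and 0.81 in M8/M4 (adjusted p = 0.0713). Its arrays disagreed in sign in F8/F3 (−0.14 and 0.80) and in M3/F3 (−1.20 and 0.55), and its call was lost under 13 of 26 alternatives. Ccl19 was 0.45 and 0.82 in F8/F3 (fitted ratio 0.64 ± 0.09, adjusted p = 0.00528) and 0.28 and 0.67 in M8/M3 (adjusted p = 0.0158, under the fold threshold). The dimmer probes of Ccl19 gave 0.30 and 0.21 in F8/F3, so that its probes disagreed on the size. With normexp correction its ratio was 0.46 and the call was lost, as it was without replicate 2 of F8/F3. Genes nearly identical to Ccl19, Ccl21a, Ccl21b and Ccl27a lie beside them in the mouse genome, and a probe cannot always tell such copies apart. Ccl21a, the lymphatic ligand of Ccr7, had ratios from 3 wk of 0.99 in the male and 0.75 in the female (adjusted p = 0.147 and 0.278). It was called in both with slide as a block, the replicate block and error-weighted averages. Of the 6 testable homeostatic and mucosal CC ligands 1 was called as higher from 3 wk in the male and 1 in the female (7.81% and 5.08% of all genes), and 0 from 4 wk in either sex. Their median ratios were 0.52 and 0.47 from 3 wk and 0.18 and 0.12 from 4 wk, with 6, 5, 4 and 4 of them above 0.

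The remaining genes of these groups were not called with age by limma. Ccl27a, the skin chemokine, had ratios of 0.19 to 0.62 and Ccl21b of −0.09 to 0.37. Ccl27a was called in F8/F3 under 5 alternatives, shared pools in the covariance and adjustment within each comparison among them. Ccl8, a monocyte chemokine, was −0.45 in both M8/M4 and F8/F4, where it could be tested. The gut homing receptor Ccr9 lay between −0.05 and 0.27, Ccr8 of regulatory T cells between 0.30 and 0.40 and Ccr7 between −0.20 and 0.15.

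Of the 5 neutrophil-attracting CXC ligands between 1 and 3 could be tested in each of the 7 comparisons, and 0 of them were called by limma, where 0.517% to 17.8% of all genes were called. Cxcl5 in M8/M3 was the 1 case with an unadjusted p below 0.05. Under alternatives Cxcl1 was called in M8/M3 and M8/M4 with error-weighted averages, Cxcl5 in M8/M3 with group means in place of comparisons, and Cxcl2 in M3/F3 without replicate 1 of that comparison. Cxcl1 had ratios of 0.92 in M8/M3 and 0.83 in M8/M4 (adjusted p = 0.187 and 0.232), and 0.22 and 0.43 in the female. Cxcl5 was not well above background at 8 wk in M8/M3 and was not called there (adjusted p = 0.0929). Cxcl2 and the receptor Cxcr2 could be tested in female liver alone, with ratios of −0.39 and −0.07 for Cxcl2 and −0.70 and −0.73 for Cxcr2. Cxcr2 was called in F8/F3 when replicate 1 of that comparison was left out. Cxcl14 varied widely, from −1.24 in F8/F3 to 1.30 in M4/F4, and was not called by limma. In M8/F8 it was 1.76 and 0.79, above 0 on both arrays (fitted ratio 1.27 ± 0.57, adjusted p = 0.214). It was called there with group means in place of comparisons, and in M4/F4, M8/F8 and F8/F3 with error-weighted averages. Both of these alternatives also called its interaction from 3 wk. The macrophage chemokine Ccl24 was −0.61 in M8/F8 (adjusted p = 0.112). Cxcl16, the ligand of Cxcr6, was between −0.14 and 0.37 in all 7 comparisons.

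The number of genes called with age depended on single arrays. In M8/M3 it was 6 without replicate 2. In M8/M4 it was 4 without replicate 2. In F8/F3 it was 2 without replicate 2, where Cx3cr1 and Ackr3 remained. In F8/F4 it was 2 without replicate 1, 3 without replicate 2, and 3 when replicate 1 of M8/M3 was left out. Without replicate 1 of F8/F4, Cx3cr1 and Ccl7 remained.

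The age change was not shown to differ between the sexes for any gene by its brightest probe. Of 43 testable genes 0 were called in M8/M3 minus F8/F3 by limma (3.35% of all genes) and of 44 genes 0 in M8/M4 minus F8/F4 (1.31% of all genes), and 8 genes in each had an unadjusted p below 0.05. When only probes well above background were fitted, Cxcl9 and Cxcl10 were called from 3 wk, and averages of arrays weighted by their error called 6 genes. At least 1 interaction was called for 0 of 44 genes, against 3.5% of all genes.

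**Figure D5:**
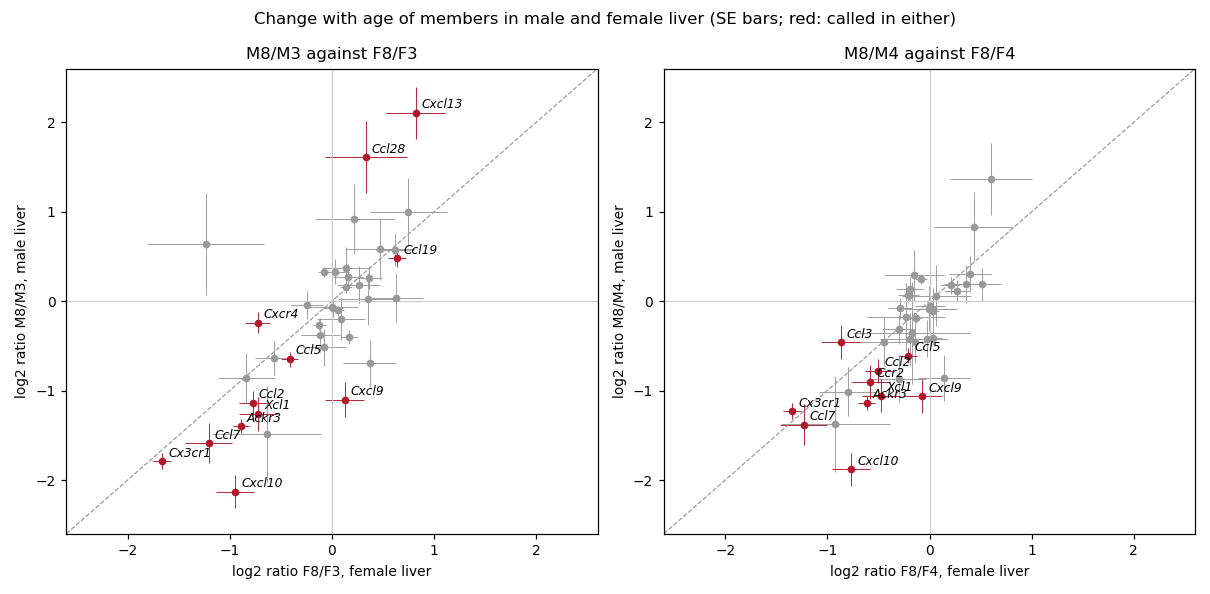
Change with age in male against female liver. The x axis is the log2 ratio in female liver (left F8/F3, right F8/F4) and the y axis that in male liver (M8/M3, M8/M4). Points are testable genes with SE bars, red points were called in either sex, and the dashed line marks equal change. Cx3cr1 lies on or near the line in both plots, while Cxcl10 and Cxcl9 lie below it by 1.18 and 1.22 on the left.

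A list of genes of chemokine signalling and handling that are no members was tested too. Of 31 testable genes 6 were called in M8/M3 (2 higher and 4 lower) and 6 in M8/M4 (1 higher and 5 lower), while the female comparisons gave 2 from 3 wk and 3 from 4 wk. Of all testable genes 17.8% and 10.8% were called in the male comparisons and 11.7% and 6% in the female. Pf4 and Ppbp, platelet chemokines whose symbols the rule did not match, were lower in all 4 age comparisons, Ppbp with −2.21 from 3 wk in the male and −2.08 in the female, and Pf4 with −1.63 and −1.48. Rac2, a GTPase of leukocyte migration, was lower in the male (−0.63 in M8/M3 and −0.67 in M8/M4). Rgs1, which dampens chemokine receptor signalling, was lower in M3/F3 (−1.63) and higher in M8/M3 (1.41), M8/M4 (1.49) and F8/F4 (1.21). Its interaction from 3 wk was called (1.65, adjusted p = 0.0275).

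Markers of several cell types changed with age. Of 8 testable neutrophil markers 7 were lower from 3 to 8 wk in the male (median −2.06) and 7 in the female (median −2.64), and the summed log2 intensity of the list was 13.4 and 13.5 in the M3 pools, 14.3 and 14.5 in F3, 11.8 and 12.0 in M8 and 12.1 and 12.2 in F8. Of the platelet markers 3 of 5 were lower in M8/M3 and 3 of 4 in F8/F3, with summed levels of 9.38 to 9.60 in M3, 9.54 to 9.58 in F3, 9.11 to 9.15 in M8 and 9.10 to 9.11 in F8. Of 5 monocyte markers 2 were lower in each of M8/M3 and F8/F3, with summed levels that overlapped between M3 (13.8 and 13.9) and M8 (13.6 and 13.9) and not between F3 (14.0 and 14.2) and F8 (13.9 and 13.9). Of the T and NK cell markers 3 of 9 (from 3 wk) and 2 of 9 (from 4 wk) were lower in the male, against 1 of 10 and 0 of 10 in the female, and the summed level was 12.0 and 12.4 in M3, 12.4 and 12.6 in M8, 12.5 and 12.8 in F3 and 12.3 and 12.7 in F8. The Kupffer cell list had 2 of 10 markers lower in M8/M3 and 1 in F8/F3, among them the scavenger receptor Marco (−2.20 and −1.58). Of 10 interferon response genes 3 were lower in M8/M3 and 3 in M8/M4 (medians −0.48 and −0.56), and 0 in F8/F3 and F8/F4 (medians 0.26 and −0.18). Of 6 mesenchymal markers 3 were lower in M8/M3 (median −0.58) and 2 in F8/F3 (median −0.40), with summed levels of 17.2 and 17.4 in M3, 16.1 and 16.4 in M8, 17.2 and 17.3 in F3 and 16.5 and 16.5 in F8. Bile duct markers were lower for 2 of 5 in M8/M3 and 1 of 5 in F8/F3. From 4 wk 3 of 7 neutrophil markers were lower in the male (median −0.50) and 6 of 8 in the female (median −1.04). Platelet markers were lower for 3 of 4 in M8/M4 and 2 of 5 in F8/F4. Of 7 endothelial markers 1 was lower in each of M8/M3, M8/M4 and F8/F3. Of 4 dendritic cell markers 1 was higher and 1 lower in M8/M3, and 1 lower in M8/M4. Acute phase genes were higher for 2 of 9 in M8/M3 and in F8/F3. Erythroid markers were lower for 2 of 5 and higher for 1 in M8/M3, and lower for 3 of 6 in F8/F3 and F8/F4. No marker of the lists was below background in all channels, and their part in the changes of the chemokines was not tested. Hepatocyte markers had medians between −0.23 and 0.04 over the 7 comparisons, and 1 of 5, Alb, was lower in each of M8/M3 (−0.71) and M8/M4 (−0.68).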

How the data were processed

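Male and female CD-1 mouse liver was compared on 14 two-colour Agilent arrays, 2 per comparison. The authors deposited Feature Extraction 10.7.1.1 output, in which each spot has a background-subtracted log10 ratio of red over green, corrected for dye by linear and LOWESS normalization, a log10 error, and processed, median and background intensities. The table deposited for the whole series held the same log10 ratios (largest difference 0). These were expressed as log2 with the male or the older group as numerator. Spots of a probe were averaged, and for each gene the probe with the highest mean processed intensity was used. Names came from RefSeq accessions (GRCm38.p6) for 26055 of 39429 probes. The array design is of build mm9, and positions of genes on it are not given.

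Ratios were tested with limma 3.58.1 in R 4.3.3, with 7 comparison terms and 1 dye term (6 residual degrees of freedom) and Benjamini-Hochberg adjustment over all probes and comparisons together, or within each of the 2 interactions. All genes called in a comparison were named, and genes never well above background were listed. Levels were intensities corrected with normexp (offset 50), loess and Aquantile normalized, and averaged over the channels that share a group and replicate number. The study's Rosetta error model was approximated by error-weighted averages with unadjusted p below 0.0001. The fit was checked on simulated data. The 14 arrays lay on 4 slides scanned on 2 days; each comparison lies within 1 day and its arrays on different slides, so that the values of single arrays are those within slides. The main fit treats the 14 arrays as independent, so that its p-values rest on the spread between arrays. If same-numbered pools recur on several arrays, the p-values do not measure an independent spread between pools. Shared pools in the covariance were fitted as an alternative. The number of arrays limits the precision. Alternatives are given in the closing section. The members and gene lists were chosen with earlier results of these data known. Depth does not apply to intensities, and no samples were left out. The values of some single genes are not reported here, although counts include them.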

Additional observations from a re-analysis of the deposited data

Results flagged for a closer look

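The difference between the sexes in the change from 3 to 8 wk passed the test for the dimmer of the 2 Cxcl9 probes, at −1.31 ± 0.25 (SE) on the log2 scale (adjusted p = 0.0376 by limma). On this probe both arrays were below 0 in male liver (−1.19 and −1.10 in M8/M3) and above 0 in female liver (0.31 and 0.02 in F8/F3). The brighter probe, which stands for the gene, had −1.22 ± 0.27 and missed the threshold (adjusted p = 0.0601). The arrays of M8/M3 and F8/F3 lay on different slides, so that this difference also crosses slides. No group held enough arrays for a test of single outlying arrays.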

How the results depend on the processing

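In the main analysis 6 genes were called in the sex comparisons, 11 in the age comparisons of male liver, 9 in those of female liver and 0 in the interactions. Of 12 alternatives besides leaving out arrays, fitting 6 group means in place of 7 comparisons gave 10, 18 and 7 for the sex comparisons, male liver and the interactions. Without a fold threshold the sex comparisons gave 11 and the interactions 2. Normexp and loess from the median signals gave 5 for female liver. The interactions gave 1 with shared pools in the covariance, with the replicate block, with slide as a block, without the condition on background and with any probe of the gene, 2 with only probes well above background, and 6 with error-weighted averages. The labels do not say whether a replicate number marks the same pools across comparisons, although replicate differences closed around the loops of comparisons (r = 0.913 at 3 wk and 0.904 at 4 wk over 20451 probes). The replicate block gave 5, 12 and 10 for the sex comparisons and male and female liver, with Cxcl13 called in M3/F3, F8/F3 and the interaction from 3 wk, Ccl21a called in M8/M3 and F8/F3, Xcl1 lost in M8/F8 and F8/F3, and Cxcr6 lost in M8/F8. Leaving out each array in turn gave 2 to 7, 9 to 12, 4 to 9 and 0 to 1. The cause of these changes was not tested.

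For the 16 named genes, each in the comparison with its largest ratio, the call was kept in 369 of 416 cases over 26 alternatives and lost in 47. Most alternatives change the error or the threshold and leave the ratio as it was or nearly so. Ccl2, Ackr3, Cx3cr1 and Cxcl10 kept their call throughout, in M8/M3. Cxcr6 in M8/F8 lost it 12 times and Ccl28 in M8/M3 13 times. With normexp correction the ratios of Ccl7, Ccl3, Xcl1 and Cxcr4 moved to −0.25, −0.31, −0.29 and −0.28, and those of Ccl28 and Cxcl13 to 0.61 and 0.94. Signal over background kept 14 genes from being tested and leaves bounds alone for Ccl7 in 3 comparisons.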
